A study of Mus musculus with 2 samples.

Results

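The cells described here are the pericytes and other mural cells among ventricular non-myocytes of the adult mouse heart, 127 of 12951 cells that passed a quality filter and of 14099 barcodes in all. They were chosen by their own transcripts. A cell was kept with at least 500 UMIs (tags that each mark 1 captured RNA molecule) and at most 10% mitochondrial UMIs. It counted as mural with at least 4 UMIs summed over Rgs5, Kcnj8, Vtn and Notch3, at least 2 of those 4 genes detected, at most 3 UMIs summed over C1qa, C1qb and C1qc, and at most 3 UMIs of Dcn. Each of the 2 animals, C57BL/6 wild types aged 10 to 12 weeks, gave 1 droplet library without treatment, so the groups compared are cell classes within the same 2 hearts. Per the labels, hearts were perfused and dissociated, the atria removed, myocytes spun out, red cells lysed and live cells sorted, so the share of mural cells is that of a sorted suspension and not of the tissue.

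Mural cells wrap the outside of blood vessels. Pericytes sit on capillaries inside the basement membrane they share with the endothelium, respond to PDGF-B from endothelial cells through the receptor PDGFRB, and are held to take part in vessel stability and local blood flow. Vascular smooth muscle cells coat arteries and veins and carry a contractile apparatus built of smooth muscle actin and myosin, encoded by Acta2 and Myh11. Of the genes in the selection rule, Rgs5 encodes a regulator of G protein signalling, Kcnj8 the pore subunit of a vascular ATP-sensitive potassium channel, Vtn the adhesive glycoprotein vitronectin, and Notch3 the Notch receptor of mural cells.

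Mouse 1 contributed 7732 barcodes with 21355383 UMIs and mouse 2 contributed 6367 with 15174548. The mitochondrial limit removed 717 and 431 barcodes, and no barcode lay under 500 UMIs. A total of 65 barcodes occurred in both libraries, and 1 mural cell of each mouse bore such a barcode. Mural cells were shallow, with a median of 1375 and 1396.5 UMIs per cell against 2606 and 2233 over all cells kept. For comparison, 3 further classes were cut by marker rules: 513 and 691 endothelial cells, 1800 and 1299 fibroblasts, and 3209 and 2547 macrophages. Each needed at least 4 UMIs of its own marker genes, at least 2 of them detected, and at most 3 UMIs of the mural genes. The C1q and Dcn limits held for each class they do not define. Fibroblasts and macrophages were also limited to at most 3 UMIs of the endothelial rule genes, a limit that mural cells did not have. Intervals below are 95% and cover counting error only.

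Mouse 1 gave 79 mural cells, 1.13% of its cells (exact Clopper-Pearson interval 0.893 to 1.40%), and mouse 2 gave 48, or 0.809% (0.597 to 1.07%). The mural genes alone were met by 95 and 57 cells. The limit on complement C1q transcripts, which mark macrophages, then removed 13 and 6 of these, and the limit on Dcn, a fibroblast proteoglycan gene, removed 3 and 3. The values of the 4 rule genes follow as a description, since they chose the cells.

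Rgs5 was detected in all 79 and all 48 mural cells, with a median of 9 and 9.5 UMIs per cell and a range of 3 to 38 and 2 to 27. Vtn was found in 66 cells (83.5%) of mouse 1 and 43 (89.6%) of mouse 2. Kcnj8 was found in 59 (74.7%) and 39 (81.3%), and Notch3 in 37 (46.8%) and 27 (56.3%). All 4 genes were present together in 22 and 23 cells, 3 of them in 39 and 15, and 2 in 18 and 10. Every mural cell thus held Rgs5, and the cells differed in which of the other 3 genes came with it. Levels of a class are UMIs of a gene per 1000000 UMIs of that class in a mouse (CPM), given for mouse 1 and then mouse 2. Rgs5 stood at 5899 and 6481 CPM in mural cells, 151 and 145 in endothelial cells, 8.44 and 13.6 in fibroblasts, and 10.2 and 10.7 in macrophages.

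At the edge of the rule, cells were few. The 12 mural cells with 4 to 6 UMIs of the 4 genes held Pdgfrb at 379 CPM, in 5 cells, and the 115 with 7 or more held it at 1216, in 90 cells. Another 12 cells missed the rule only by holding 2 or 3 such UMIs, and none of them held a Pdgfrb UMI. Their Pecam1, an endothelial adhesion gene, stood at 977 CPM, against 331 just inside the rule and 251 in the rest.

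Among the marker lists of other cell types, the endothelial list had the highest summed level in the mural cells, for which the rule set no endothelial limit. All 14 genes of an endothelial marker list had UMIs there, with a summed level of 16615 and 12331 CPM, against 42060 and 42200 in endothelial cells, 689 and 827 in fibroblasts, and 1013 and 1182 in macrophages. Of the mural cells, 16 and 7 held more than 3 UMIs over Pecam1, Cdh5, Kdr and Emcn, and 52 and 35 held none. The 23 endothelial-marked cells were deeper, with median depths of 3201.5 and 2471 UMIs against 1299 and 1322 in the other mural cells. Fabp4, a fatty acid carrier of capillary endothelium, reached 18706 and 16636 CPM in the marked cells, 3768 and 5033 in the other mural cells, and 23444 and 24879 in endothelial cells. Kcnj8 stood at 617 and 120 in the marked cells against 2642 and 2992 in the others, and Vtn at 309 and 419 against 2664 and 2439. Rgs5 differed less, at 4088 and 3471 against 6945 and 7351. The doublet caller Scrublet marked 0 of these 23 cells and 1 of all 127. The part of joined or adhering endothelial cells in the results was not tested, and the class comparisons and the test by Acta2 or Myh11 were also run without the 23 cells.

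**Figure D1:**
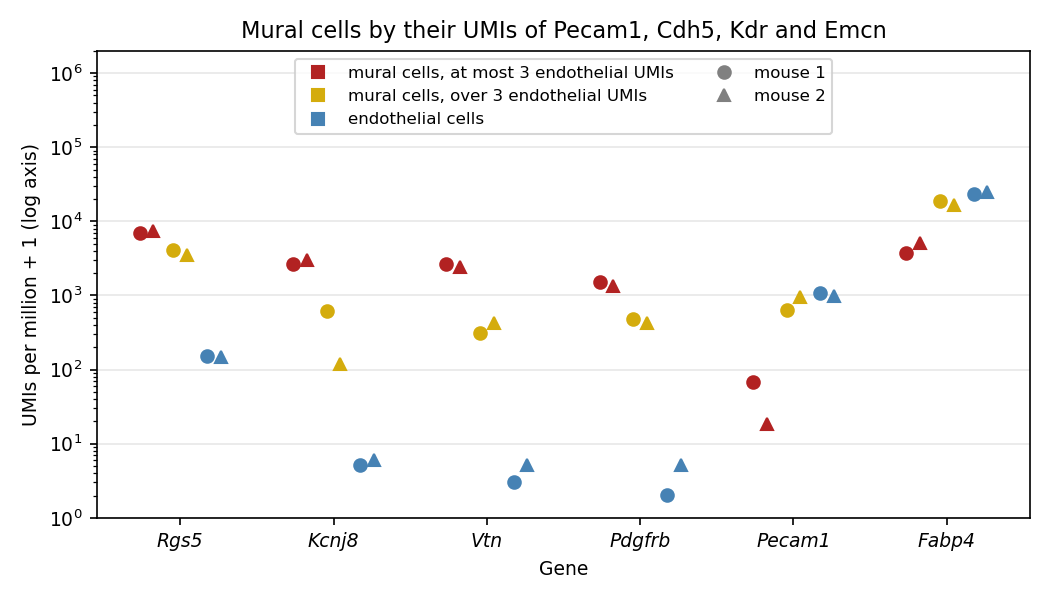
Level of 6 genes, as CPM plus 1 on a log axis, in mural cells with at most 3 UMIs of 4 endothelial genes (63 and 41 cells), in mural cells with more than 3 (16 and 7 cells) and in endothelial cells, each point being 1 mouse. The endothelial-marked cells lie between the other mural cells and the endothelial cells for Rgs5, Kcnj8, Vtn and Pdgfrb, and near the endothelial cells for Pecam1 and Fabp4. Pecam1 was used to split the mural cells, and Rgs5, Kcnj8 and Vtn to choose the classes, so their positions follow in part from the selection.

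The lists of other lineages summed to less, but the rule itself had capped Dcn of the fibroblast list and the C1q genes of the macrophage list. The fibroblast list summed to 1201 and 1261 CPM in mural cells, against 546 and 555 in endothelial cells and 56958 and 71132 in fibroblasts, and the macrophage list to 1229 and 1234, against 65398 and 71024 in macrophages and 1336 and 1324 in endothelial cells. The cardiomyocyte list summed to 791 and 268 in mural cells and to 927 and 299 in endothelial cells, with Nppa at 0. All 5 red cell genes were at 0, as were the Schwann cell gene Sox10 and the proliferation genes Mki67, Top2a, Cdk1 and Birc5. Mural cells held 141561 and 74530 UMIs in all, which limits what a count of 0 can show.

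The next comparison asked which other genes the chosen cells held above or below endothelial cells, fibroblasts and macrophages of the same hearts. UMIs were summed per mouse and class and compared by edgeR's quasi-likelihood test with the mouse as a block. A gene was called at a Benjamini-Hochberg adjusted p below 0.05 and a difference of at least 1 on the log2 scale. The 15 genes used in any class rule were not tested. With 1 library per mouse and the mouse as a block, p-values rest on how far the class differences vary between 2 animals. Among 11473 genes tested, 510 were higher in mural than in endothelial cells (4.45%) and 593 lower (5.17%). Against fibroblasts 664 were higher (5.79%) and 873 lower (7.61%), and against macrophages 1267 were higher (11%) and 1576 lower (13.7%). A total of 145 genes (1.26%) were higher than in each of the other 3 classes, called highest below, and 43 (0.375%) were lower than in each. Of the 145 genes, 142 kept the fold in mouse 2 alone and 144 in mouse 1 alone, by CPM without TMM scaling factors or a new fit. Both mice had entered these calls, so this describes the set and is no replication. Without the endothelial-marked cells 154 genes were highest, 139 of the 145 among them.

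The balance of higher and lower calls rested on the scaling. Without TMM factors the splits became 632 higher to 311 lower against endothelial cells, 928 to 515 against fibroblasts and 2116 to 714 against macrophages. DESeq2 gave 553 to 323, 821 to 575 and 1498 to 1161. Over all genes tested the median log2 difference was -0.24, -0.25 and -0.25 in the 3 comparisons, and leaving out the TMM factors moved it up by 0.31, 0.39 and 0.73. The medians of gene lists are given against the first set of values. List counts below are to be read beside the shares of all genes tested. Those were 1.26% highest, with 4.45, 5.79 and 11% higher and 5.17, 7.61 and 13.7% lower than in endothelial cells, fibroblasts and macrophages.

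The pericyte genes outside the rule rose together. Of 20 listed, 19 could be tested and 16 were highest, with 18, 17 and 18 higher than in endothelial cells, fibroblasts and macrophages and none lower. Their median log2 difference was 6.77, 5.90 and 8.68. The list had been drawn up from known pericyte genes with earlier results of these data known, and the cells were chosen for genes that go with them, so the count describes the cells and does not test their name. Among its highest genes, Higd1b, Ndufa4l2, Cox4i2, Abcc9, Rgs4, P2ry14, Pdgfrb, S1pr3 and Colec11 also belong to lists below and are counted there again. The 4 left outside the called set were Mcam, Tbx18, Anpep and Ggt1. Mcam, an adhesion molecule shared with endothelium, stood at 120.1 and 188 CPM in mural and 54.2 and 44.7 in endothelial cells, and over the 3 comparisons its adjusted p was 0.0601 (edgeR). It was called highest under DESeq2, without TMM factors and without the low-count filter. Tbx18, a transcription factor of mural progenitors, stood at 63.6 and 53.7 against 27.1 and 34.4 in fibroblasts. Anpep had 0 and 13.4, and Ggt1 had no UMI in mural cells.

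Pdgfrb, the receptor through which pericytes are recruited, lies on chromosome 18 from 61045150 to 61085061 (build GRCm38, GENCODE vM21 annotation). It was detected in 59 of 79 mural cells (74.7%) and 36 of 48 (75.0%), and stood at 1130.2 and 1140.5 CPM. Endothelial cells held 1.02 and 4.14, fibroblasts 60.3 and 108, and macrophages 1.60 and 1.13. The difference from fibroblasts, the class nearest in level, was 3.44 ± 0.21 (SE) on the log2 scale, with an edgeR adjusted p of 5.2e-13 over the 3 comparisons. Cspg4, which encodes the proteoglycan NG2 used to stain pericytes, had 9 and 12 UMIs, or 63.6 and 161 CPM, and none in endothelial cells, which makes it at least 70.7-fold higher than there with 3 counts over both mice as the floor. It was seen in only 9 and 7 mural cells.

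Abcc9, the sulfonylurea receptor subunit that joins the Kcnj8 pore, occupies chromosome 6 from 142587862 to 142702315 on the minus strand, next to Kcnj8 from 142564837 to 142571614 on the same strand. Abcc9 stood at 713 and 953 CPM in mural cells, 9.21 and 2.49 in endothelial cells, 7.65 and 5.43 in fibroblasts, and 0.901 and 0.989 in macrophages. Both mice lay far above every other class, by 6.52 ± 0.29 (SE) on the log2 scale against fibroblasts and 6.87 ± 0.36 against endothelial cells (edgeR adjusted p over the 3 comparisons 2e-14). It was detected in 46 (58.2%) and 30 (62.5%) of the mural cells.

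Subunits linked to the respiratory chain gave some of the clearest values. Higd1b, a hypoxia-induced domain gene used as a pericyte marker, stood at 1604 and 1328 CPM in mural cells, and between 0.707 and 8.19 in every other class and mouse. Its smallest difference was 7.40 ± 0.26 (SE) on the log2 scale, against endothelial cells (edgeR adjusted p 2.7e-18). Ndufa4l2, a paralog of a cytochrome oxidase subunit, stood at 1448 and 1569.8, against 125 and 191 in fibroblasts, a difference of 2.91 ± 0.17. Cox4i2, the oxygen-tuned isoform of cytochrome oxidase subunit 4, stood at 685 and 725, against 11.3 and 15.7 in endothelial cells and 7.26 and 9.05 in fibroblasts. These 3 were the only members of the 16 tested in the electron transport list that were highest, and all 3 are also in the pericyte list. Their ubiquitous counterparts did not follow. Cox4i1 stood at 1109 and 1100.2, against 1087 and 1108 in endothelial cells, and was not called in any of the 3 comparisons. Ndufa4 at 261 and 215 and Higd1a at 56.5 and 67.1 were called lowest, against 580.3 and 601, and 143 and 118, in endothelial cells. That call of lowest was lost for both under DESeq2 and without TMM factors. It was also lost for Higd1a without the mouse block, and for Ndufa4 without Scrublet doublets and with cells of at least 1000 UMIs.

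Further pericyte genes followed the same order. Colec11, which encodes a collectin of the complement lectin pathway, stood at 1053 and 1597 CPM, with 12.3 and 19.9 in endothelial cells and 5.10 and 15.4 in fibroblasts. Steap4, a metalloreductase gene, stood at 1074 and 939, with 126 and 35.0 in fibroblasts. Art3 stood at 784 and 738, with 115 and 144 in endothelial cells, and Rgs4, a second regulator of G protein signalling, at 494 and 725, with no more than 2.11 in any other class. Levels in the 2 mice differed less than 2-fold for each of these, and no value of another class reached them.

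**Figure D2:**
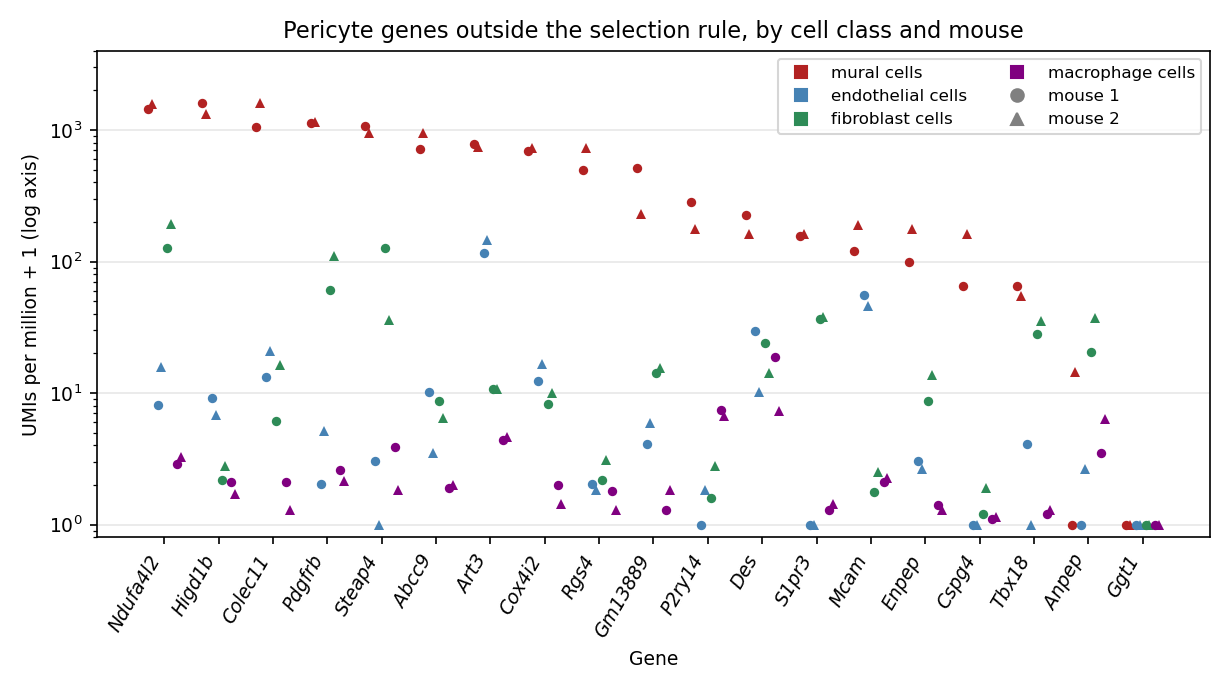
Of the 20 listed pericyte genes outside the selection rule, 19 are shown as CPM plus 1 on a log axis, in the 4 cell classes, each point being 1 mouse. Mural cells lie above the other classes in both mice for every gene except Anpep and Ggt1, and fibroblasts come nearest for Pdgfrb, Steap4, Ndufa4l2, S1pr3 and Tbx18.

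Among the 20 genes that led the highest set by their smallest fold, 10 belonged to no list. Scn3a, a voltage-gated sodium channel gene, had 13 and 5 UMIs in mural cells and none in the 3 other classes, so that it was at least 60.6-fold higher than in endothelial cells, 234-fold than in fibroblasts and 474-fold than in macrophages. Lin7a, a scaffold protein gene, had 22 and 12 UMIs (155 and 161 CPM) and none in endothelial cells, which makes it at least 114.5-fold higher in mural cells. Rerg, a small GTPase gene, had 26 and 15 UMIs, or 184 and 201 CPM. Serpini1, a serine protease inhibitor gene, stood at 424 and 322, with 5.30 and 6.64 in fibroblasts, and Vstm4 at 169.5 and 335. Car2, Klhl23, Olfr558 and 4833422C13Rik stood at 53.7 to 148 CPM. Under DESeq2 the calls of Scn3a and Olfr558 were lost, with adjusted p values of 0.784 and 0.120.

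**Figure D3:**
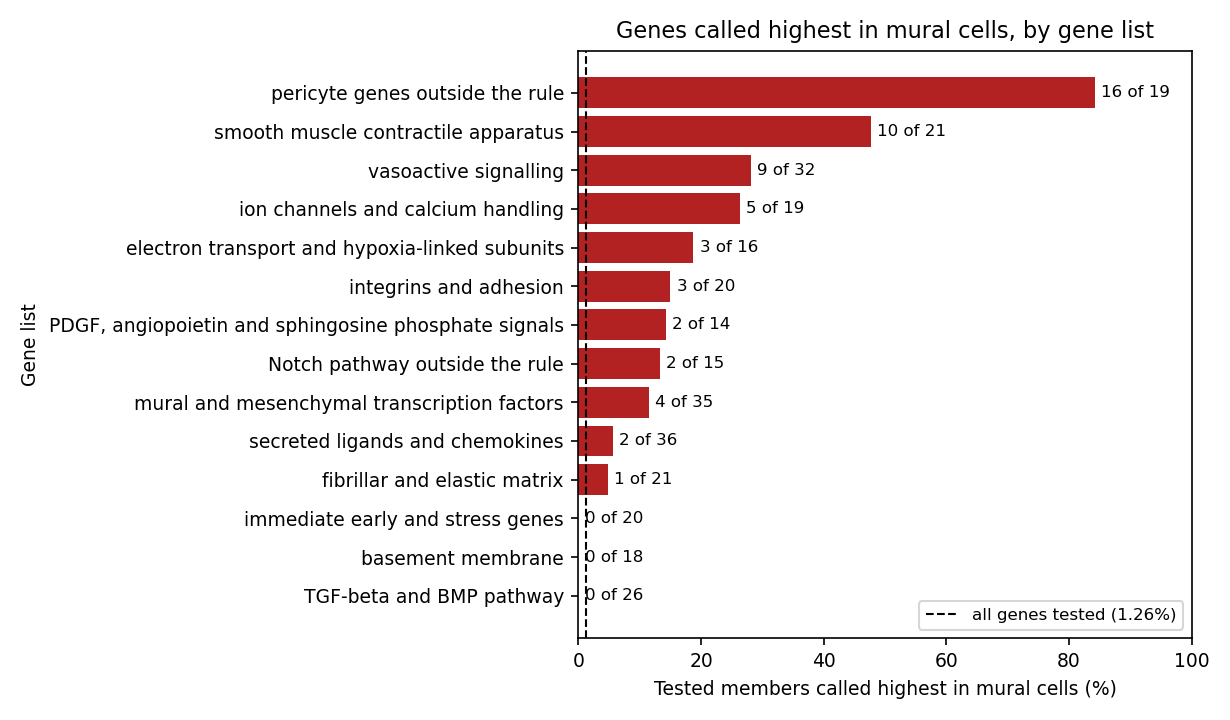
Share of the tested members of each gene list that were called highest in mural cells, with the counts beside the bars and the 1.26% of all genes tested as a dashed line. The pericyte list stands at 16 of 19 and the contractile list at 10 of 21, and 3 lists have no such member. The lists overlap, and genes of the pericyte list are counted again in other bars, so the bars are not independent.

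Of the contractile list, 21 genes were tested and 10 were highest: Acta2, Myh11, Tagln, Myl9, Tpm2, Mylk, Lmod1, Casq2, Sncg and Vcl. The call of Myh11, on 11 and 3 UMIs, was lost under DESeq2, and the gene was too sparse to be tested without the endothelial-marked cells, with at least 8 mural UMIs or with cells of at least 1000 UMIs. The counts were 13, 12 and 17 higher and 1, 0 and 2 lower against endothelial cells, fibroblasts and macrophages, and the median log2 differences 1.91, 2.60 and 6.26. Myl9, a regulatory light chain of smooth muscle myosin, stood at 396 and 496 CPM, against at most 12.4 elsewhere, and its smallest difference was 5.47 ± 0.34 (SE, against fibroblasts, edgeR adjusted p 2.5e-12). Tpm2, a tropomyosin gene, stood at 445 and 456, against 23.9 and 38.3 in fibroblasts. Casq2, a calcium store protein, had 30 and 19 UMIs in mural cells and none in endothelial cells. Vcl, which encodes vinculin of the cell anchoring plaques, stood at 169.5 and 148, against 47.1 and 45.6 in endothelial cells, a difference of 1.47 ± 0.33 (edgeR adjusted p 0.00480). Acta2 and Myh11 differed between the mice, at 452 against 121 and 77.7 against 40.3 CPM. Cnn1 had 1 UMI, in mouse 1, and Actg2 and Myocd had none. Myl6, the light chain found in most cells, stood at 1356 and 1838 against 1874 and 2075 in endothelial cells.

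The promoters of contractile genes often carry a CArG box, the binding letters of serum response factor. The 250 bases before the start of each gene were searched on both strands for CC, then any 6 letters of A or T, then GG, in RefSeq promoters of build GRCm38.p6. Such a box was present in 439 of 27025 promoters (1.62%), in 3 of 20 contractile genes with a promoter (Myl9, Myl6 and Vcl), in 0 of 14 pericyte genes, in 3 of 94 genes of the highest set (3.19%) and in none of the 4 rule genes. The promoters of Myl9 and Vcl are shown because both genes were highest in mural cells and hold a box, set in capitals. The box of Myl9 begins 161 bases before the start (chr2:156775214-156775463, plus strand), and that of Vcl 227 bases before it (chr14:20929148-20929397, plus strand). A match describes letters and not binding, and no match says only that these letters are not in the window.
Myl9: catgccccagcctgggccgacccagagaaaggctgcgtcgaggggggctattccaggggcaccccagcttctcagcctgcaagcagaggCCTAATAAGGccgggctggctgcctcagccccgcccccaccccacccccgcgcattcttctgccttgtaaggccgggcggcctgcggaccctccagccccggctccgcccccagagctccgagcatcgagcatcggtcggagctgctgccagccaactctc
Vcl: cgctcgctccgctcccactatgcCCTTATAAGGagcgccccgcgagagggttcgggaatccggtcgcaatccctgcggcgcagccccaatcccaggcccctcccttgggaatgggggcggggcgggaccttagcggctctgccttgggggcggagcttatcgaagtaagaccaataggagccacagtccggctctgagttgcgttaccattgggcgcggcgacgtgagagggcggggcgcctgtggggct

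Vasoactive signalling was the next group by number. Of 32 genes tested, 9 were highest (Gucy1a3, Gucy1b3, Rgs4, P2ry14, Ednra, Ednrb, Agtr1a, Adora2b and Pde3a), and the median log2 differences were 0.37, 1.32 and 2.87. Against endothelial cells, fibroblasts and macrophages 13, 11 and 17 were higher and 4, 5 and 4 lower. Gucy1a3 and Gucy1b3 encode both subunits of soluble guanylate cyclase, the nitric oxide receptor. Gucy1b3 stood at 445 and 671 CPM, against 3.07 and 4.97 in endothelial cells and 12.8 and 20.5 in fibroblasts, and Gucy1a3 at 480.4 and 335, against 8.19 and 3.31, and 7.65 and 16.9. Both subunits were thus high in the same class, by 4.68 ± 0.26 and 4.83 ± 0.37 (SE, log2 scale) over fibroblasts. Nos3, the endothelial synthase that makes nitric oxide, had 2 UMIs in mural cells and stood at 67.5 and 101 CPM in endothelial cells.

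Receptors for constrictor peptides were among the called genes, at low counts. Ednra, the endothelin A receptor of vessel walls, had 24 and 5 UMIs in mural cells (169.5 and 67.1 CPM) and none in endothelial cells, so that it was at least 97.7-fold higher than there. Ednrb stood at 283 and 107, against 87.0 and 74.6 in endothelial cells, a difference of 1.06 ± 0.29 (SE) that was not called under DESeq2 or without the mouse block. Agtr1a, the angiotensin II type 1 receptor, had 7 and 3 UMIs, or 49.4 and 40.3 CPM, against 2.36 and 2.11 in fibroblasts. No UMI of Agtr2 or of the adrenergic receptors Adra1a, Adra1b, Adra1d and Adra2a was found in mural cells. Adora2b, an adenosine receptor, stood at 177 in mouse 1 and 40.3 in mouse 2, and Pde3a, a cyclic nucleotide phosphodiesterase, at 155 and 148. The call of Adora2b was lost without the mouse block.

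Of 19 tested ion channel and calcium genes, 5 were highest, Abcc9, Ano1, Kcne4 and Atp1b2 among them. Ano1, the calcium-activated chloride channel, had 13 and 9 UMIs, or 91.8 and 121 CPM, and 1 UMI in all endothelial cells. Kcne4, a potassium channel accessory subunit, stood at 127 and 53.7 with none in endothelial cells, and its call was lost without the mouse block. Kcna5 and Aqp1 were lower than in endothelial cells. Kcna5 stood at 205 and 134 against 503 and 235, a call lost without the mouse block. Kcnmb1, a subunit of the large-conductance channel, had 1 and 5 UMIs and was too sparse to be tested, and its partner Kcnma1 had none.

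In the PDGF, angiopoietin and sphingosine phosphate list, the receptors Pdgfrb and S1pr3 were highest among 14 genes tested. Both are also in the pericyte list. S1pr3 stood at 155 and 161 CPM, against 35.5 and 36.8 in fibroblasts and none in endothelial cells, and its difference from fibroblasts was 1.74 ± 0.34 (SE, edgeR adjusted p 9.6e-04). S1pr1, the receptor of endothelium, stood at 417 and 174 against 722 and 321 there, lower by a call that was lost under DESeq2, without TMM factors, without the mouse block, without Scrublet doublets and with cells of at least 1000 UMIs. Angpt1, the ligand that pericytes are known to give to the endothelial receptor Tek, had no UMI in mural cells and stood at 17.7 and 32.6 in fibroblasts. Angpt2 stood at 28.3 and 53.7, from 4 UMIs in each mouse, against 25.6 and 24.9 in endothelial cells. Over the list the medians were -1.37, 1.51 and 1.89. Against macrophages 8 of the 14 were higher, and 4 without the endothelial-marked cells.

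Of the Notch pathway outside the rule, Jag1 and Hey2 were highest among 15 tested genes. Jag1, a ligand, stood at 198 and 134 CPM, against 34.8 and 31.5 in endothelial cells. Hey2, a target repressor, rested on 6 and 3 UMIs, at 42.4 and 40.3, and was not called with cells of at least 1000 UMIs. Heyl, a target of Notch3, stood at 184 and 215 in mural cells, 74.4 and 125 in fibroblasts and 2.05 and 7.46 in endothelial cells, and was not called against fibroblasts (0.68 ± 0.28, SE), except without TMM factors or without the endothelial-marked cells. Against endothelial cells 4 members were higher and 1 lower, and 5 were lower without the endothelial-marked cells. The highest members numbered 1 to 3 over the alternatives.

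Transcription factors gave 4 highest genes among 35 tested: Foxs1, Nr2f1, Nr2f2 and Tbx2. Foxs1, a forkhead factor of pericytes, stood at 268 and 188 CPM, against 43.2 and 32.6 in fibroblasts and 2.05 and 1.66 in endothelial cells. Nr2f2, the orphan nuclear receptor COUP-TFII known from veins, stood at 304 and 403, against 78.8 and 77.1 in endothelial cells. Nr2f1 stood at 77.7 and 121, and Tbx2 at 63.6 and 53.7 from 9 and 4 UMIs. Against fibroblasts 11 of the 35 were higher and 6 lower. Ebf1 stood at 565 and 792 against 262 and 338 there (0.77 ± 0.18, SE, under the fold limit, but called without TMM factors and without the endothelial-marked cells), and Tbx20 at 70.6 and 148 against 92.8 and 134.

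Of 21 fibrillar and elastic matrix genes tested, 11 were higher than in endothelial cells and none lower, while 1 was higher than in fibroblasts and 18 were lower, with medians of 1.56 and -2.79. Mgp, matrix Gla protein, showed this order with 2246 and 3073 CPM in mural cells, 418 and 447 in endothelial cells, and 6900.0 and 5108 in fibroblasts. Bgn, biglycan, stood at 346 and 322, between 99.3 and 92.0 in endothelial cells and 1964 and 1527 in fibroblasts. Postn, periostin, was the exception, at 198 and 148 against 35.1 and 13.3 in fibroblasts (2.41 ± 0.37, SE, edgeR adjusted p 3.2e-05). None of 18 basement membrane genes was highest, beside 1.26% of all genes tested. Of the 18, 2 were higher and 2 lower than in endothelial cells, beside 4.45 and 5.17% of all genes. Sparc stood at 2995 and 2871, against 2295 and 2255 in endothelial cells, and Col4a1 at 608 and 483, against 563 and 562. Against fibroblasts 9 of the 18 were lower, Nid1 among them at 184 and 53.7 against 618 and 618.

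Of 20 integrin and adhesion genes tested, Itga7, Thy1 and Jam3 were highest. Itga7, a laminin-binding integrin subunit of muscle, had 17 and 11 UMIs (120.1 and 148 CPM), none in endothelial cells or macrophages, and 1.18 and 3.62 CPM in fibroblasts. Thy1 stood at 127 and 188, against 33.6 and 40.1 in fibroblasts. Itgb1, the common integrin subunit, stood at 529.8 and 429 and was called in no comparison. Esam, an adhesion molecule of endothelium, stood at 826 and 644 in mural and 894 and 716 in endothelial cells.

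Among 36 tested secreted factors, Colec11 and Il34 were highest. Il34, a cytokine that binds Csf1r on macrophages, had 25 and 11 UMIs in mural cells, or 177 and 148 CPM, against 6.28 and 1.81 in fibroblasts and 1 UMI each in all endothelial cells and macrophages. Its difference from fibroblasts was 4.86 ± 0.51 (SE, edgeR adjusted p 6.3e-08). Cxcl12, a chemokine, stood at 713 and 792, between 1043 and 1288 in endothelial cells and 115 and 110.4 in fibroblasts. Against fibroblasts 19 of the 36 were lower, with Apoe at 1067 and 1248 against 5002 and 6791.

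None of 26 TGF-beta and BMP genes was highest. Against fibroblasts 4 were higher and 11 lower, and against endothelial cells 3 were higher and 5 lower. Without the endothelial-marked cells 1 was higher than in fibroblasts and 8 were lower than in endothelial cells. The BMP target genes Id1 and Id3 stood at 749 and 805, and 1321 and 1422, in mural cells, below endothelial cells (1702 and 1649.7, and 2196 and 2474) and above fibroblasts (29.6 and 54.9, and 422 and 502), and all 4 of these differences were called. For Id3 the call against endothelial cells was lost without TMM factors, and that against fibroblasts without the endothelial-marked cells. None of 20 immediate early and stress genes, which respond to tissue dissociation, was highest, beside 1.26% of all genes tested. Against endothelial cells, fibroblasts and macrophages 1, 1 and 1 were higher and 5, 5 and 10 lower. Of all genes tested, 5.17, 7.61 and 13.7% were lower. Without TMM factors 3, 2 and 6 of the 20 were lower. Fos stood at 636 and 523 against 1050.3 and 733 in fibroblasts and 1613 and 1519 in macrophages. Its difference from fibroblasts was not called, though it was without the low-count filter and with cells of at least 1000 UMIs. Hspb1 differed between mice in every class, at 2769 and 818 in mural and 4693 and 2076 in endothelial cells.

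Acta2 or Myh11 was present in a small part of the mural cells. In mouse 1, 11 of 79 held a UMI of either gene, 13.9% (exact interval 7.16 to 23.5%), and in mouse 2, 4 of 48, 8.33% (2.32 to 20%), which gives 11.1% ± 3.95 (SD, n = 2). All 15 cells held Acta2 and 7 also held Myh11. The same share was 0.585 and 0.289% of endothelial cells (median depths 1631 and 1530 UMIs), 1.33 and 0.770% of fibroblasts, and 0.779 and 0.0785% of macrophages, so the mural share lay above every other class in both mice. With each cell thinned to 1000 UMIs, 10 of 72 mural cells (13.9%) and 2 of 36 (5.56%) held either gene, and 7 and 12 cells were too shallow to be thinned. At least 3 UMIs were held by 10 cells (12.7%) of mouse 1 and 1 (2.08%) of mouse 2. Over all classes, cells with 4 or more UMIs of both genes numbered 12 and 3, of which 9 and 1 were mural by the rule and 2 and 1 belonged to no class.

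**Figure D4:**
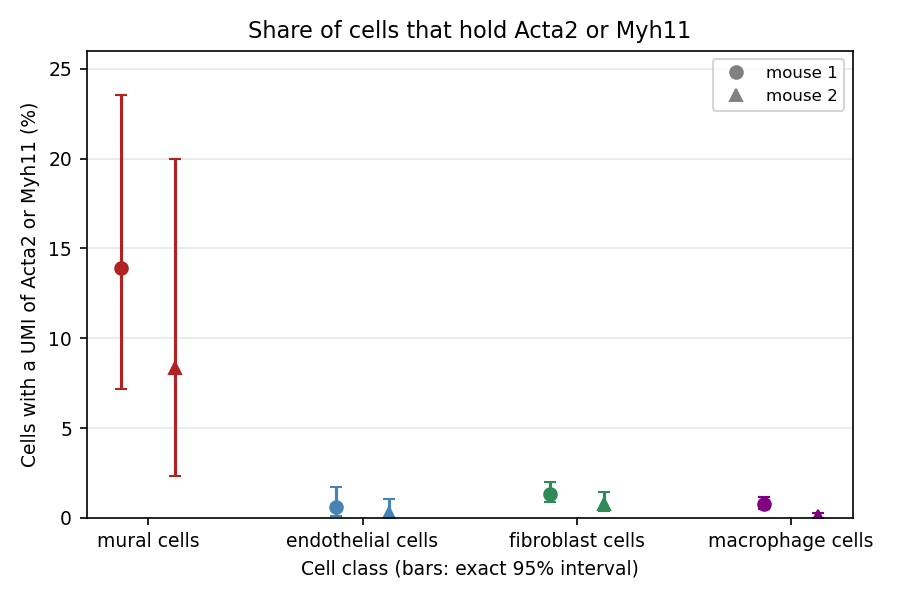
Share of cells with at least 1 UMI of Acta2 or Myh11 in each class, with exact 95% intervals, each point being 1 mouse. Mural cells stand at 13.9 and 8.33%, and no other class exceeds 1.33%.

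Detection of the listed genes is given for the 15 cells with Acta2 or Myh11 and the 112 without as a description. With and without, Kcnj8 was found in 3 cells (20%) and 95 (84.8%), Abcc9 in 5 (33.3%) and 71 (63.4%), and Colec11 in 6 (40%) and 93 (83.0%). P2ry14, a nucleotide sugar receptor, was found in 2 (13.3%) and 41 (36.6%). Notch3 was found in 11 (73.3%) and 53 (47.3%), and Pdgfrb in 9 (60%) and 86 (76.8%). Higd1b, in 12 (80%) and 80 (71.4%), and Ndufa4l2, in 13 (86.7%) and 94 (83.9%), were found in most cells of either kind. The pericyte list did not move as a whole. Steap4, Rgs4, Art3 and Cspg4 were also found in a smaller share of the cells with either gene. Mcam, in 5 (33.3%) and 19 (17.0%), and Enpep, in 4 (26.7%) and 18 (16.1%), went the other way. So did S1pr3, in 4 (26.7%) and 25 (22.3%), Gm13889, in 7 (46.7%) and 44 (39.3%), and Des, given below. Median depths were alike, 1399 and 1522 UMIs with and 1370 and 1396.5 without. Since Kcnj8 and Notch3 belong to the selection rule, their shares describe cells that the rule had already let in. Some endothelial markers moved with the same split: Cav1 was found in 10 (66.7%) and 26 (23.2%), Flt1 in 7 (46.7%) and 25 (22.3%), Cd36 in 11 (73.3%) and 54 (48.2%), and Pecam1 in 5 (33.3%) and 22 (19.6%). Others hardly moved, with Cldn5 in 2 (13.3%) and 13 (11.6%) and Ly6c1 in 5 (33.3%) and 33 (29.5%). Emcn, in 1 (6.67%) and 19 (17.0%), and Tie1, in 0 (0%) and 12 (10.7%), went the other way. More than 3 UMIs of the 4 endothelial genes were held by 4 (26.7%) and 19 (17.0%). In the 11 and 93 cells left without these, Kcnj8 was found in 2 (18.2%) and 86 (92.5%), Abcc9 in 2 (18.2%) and 66 (71.0%), and Tagln in 8 (72.7%) and 4 (4.30%).

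Of the contractile list, Tagln, transgelin, was found in 10 of 15 cells (66.7%) against 5 of 112 (4.46%), Myl9 in 13 (86.7%) against 35 (31.3%), and Lmod1, leiomodin, in 8 (53.3%) against 5 (4.46%). Actn1 was found in 8 (53.3%) against 14 (12.5%), and Mustn1 in 7 (46.7%) against 6 (5.36%). Des, the muscle intermediate filament desmin, belongs to the pericyte list and was found in 9 (60%) against 25 (22.3%). Casq2, in 4 (26.7%) against 34 (30.4%), and Smtn, in 2 (13.3%) against 11 (9.82%), were found at similar shares, and Actg2 and Myocd in no cell. These shares pool the mice, and in mouse 2 the 4 cells with Acta2 or Myh11 held Mustn1 in 0, Des in 1, Lmod1 in 1, Tagln in 2 and Myl9 in 3. In edgeR's quasi-likelihood test on sums per mouse, 0 of 792 genes (0%) were called in either direction, with 60 at an unadjusted p below 0.05 and a smallest adjusted p of 0.270. Tagln, with 38 and 6 UMIs in the cells with and 2 and 4 in those without, differed by 5.25 ± 0.67 (SE) on the log2 scale with an adjusted p of 0.270 in edgeR, and DESeq2 called it alone, with an adjusted p of 3.2e-04. On simulated counts the same fit recovered 77.2% of 57 genes changed 4-fold and 100% of 62 changed 16-fold, with 8 false calls among the unchanged of 834 genes. The simulation used a fixed spread and changed only well expressed genes, whereas the real test left Tagln uncalled. Its recovery thus does not give the power of the test on these 15 cells, and the absence of calls does not show that the parts are alike.

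**Figure D5:**
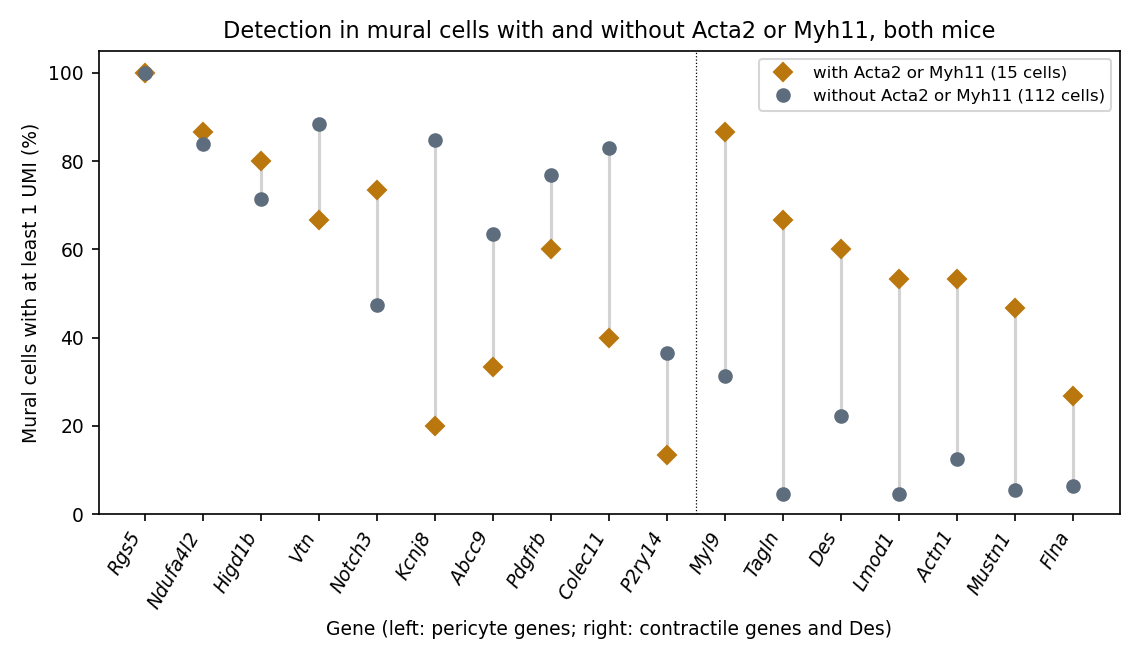
Share of mural cells of both mice with at least 1 UMI of 10 pericyte genes (left) and of 6 contractile genes and Des (right), in the 15 cells with Acta2 or Myh11 and the 112 without, for genes chosen after their values were seen. Kcnj8, Abcc9 and Colec11 were found in a smaller share of the cells with Acta2 or Myh11, and Tagln, Myl9 and Lmod1 in a larger share. Des belongs to the pericyte list. Mcam, Enpep, S1pr3 and Gm13889 of that list, also found in a larger share, are not shown.

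The genes lowest in mural cells were fewer and less stable. The 6 that led by fold were Cxcl16, Emp1, S100a10, Snf8, Rpl13-ps3 and Vim. S100a10, an annexin partner, stood at 466 and 349 CPM, against 813 to 1573 in the other classes, and Vim, vimentin, at 403 and 483 against 856 to 1509. Both were called lowest under each alternative run. Cxcl16 rested on 2 UMIs in each mouse. The count of 43 fell to 18 under DESeq2 and to 10 without TMM factors, and it rose to 116 without the endothelial-marked cells.

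The 2 mice were set side by side without a test, 1 library standing for each. Among 1993 genes with at least 20 UMIs in mural cells, 65 were at least 2-fold higher in mouse 2 (3.26%) and 146 in mouse 1 (7.33%), with a median ratio of 1.01. The largest ratios towards mouse 2 were those of Ccl5 (3.63-fold, exact interval 1.67 to 8.33), a chemokine gene, then Tspan12, Polr2j, Ube2w and Gm2000. Towards mouse 1 they were those of Hspa4l (11.6-fold, 1.87 to 478), Dcun1d5, Tnni3, Celf1 and Pitpna. Tnni3 is a cardiomyocyte gene, and its mouse 2 to mouse 1 ratio was 0.165 in mural, 0.304 in endothelial cells and 0.407 in fibroblasts. Of the listed genes, Acta2 was 3.74-fold higher in mouse 1 (1.85 to 8.56) in mural cells. Its mouse 2 to mouse 1 ratio was 0.267 there, 0.113 in macrophages (25 and 2 UMIs), 0.922 in fibroblasts (35 and 21 UMIs) and 0.810 in endothelial cells, on only 2 UMIs in each mouse. Hspb1 was 3.38-fold higher in mouse 1 (2.58 to 4.51), with ratios of 0.442 and 0.358 in endothelial cells and fibroblasts. Of the rule genes and the pericyte list with at least 20 UMIs, Gm13889, 2.26-fold higher in mouse 1 (1.32 to 4.09), and Cspg4, 2.53-fold higher in mouse 2 (0.979 to 6.81), differed by 2-fold or more, and the others by less.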

How the data were processed

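Droplet libraries (10x 3′ v2) of 2 mice were analysed. The authors deposited whole-number UMI counts per gene and barcode. Per the submitters' processing notes, Cell Ranger 2.2.0, FastQC and build mm10 were used; the annotation and the rule that chose barcodes are not given in the sources used here. Libraries held 21355383 and 15174548 UMIs. The members, gene lists and tests were chosen with earlier results of these data known. Endothelial cells, fibroblasts and macrophages were cut by marker rules with further limits on the genes of other classes, and no clustering was done. Called doublets stayed in, and Scrublet (scanpy 1.11.5) removed them in an alternative. Counts were summed per mouse and class and fitted with edgeR 4.0.16 in R 4.3.3 (TMM factors, filterByExpr, quasi-likelihood test, mouse as block, Benjamini-Hochberg adjustment over all genes tested). DESeq2 1.42.0 was an alternative. The fit was tested on data simulated with a fixed spread. Where a class held no UMI of a gene, its floor was 3 counts over both mice. Both mouse numbers name animals, so each block pairs classes of the same heart. Genes named are the 20 leading highest and 6 leading lowest genes with at least 50 CPM in both mice on the higher side, up to 6 members of each list by level, exceptions the text counts, and the 5 largest ratios between mice each way. Other genes named, among them low members of the lists and genes at 0, were chosen after their values were seen. Some genes of the lists and of the leading set are not reported here. Detection by Acta2 or Myh11 without the endothelial-marked cells was counted after seeing the data.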

Additional observations from a re-analysis of the deposited data

How the results depend on the processing

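For the 20 leading highest and 6 leading lowest genes, 271 values under the alternatives kept their direction and call, 10 lost the call and none reversed. Those that lost it were Scn3a, Olfr558, Cxcl16, Emp1, Snf8 and Rpl13-ps3. Among other genes named as highest, the call was lost for Myh11, Ednrb, Kcne4, Adora2b and Hey2, in settings given with their values. The 145 highest genes became 117 to 193 over the alternatives, and 106 were called under all 9 settings. The count lower than in endothelial cells, 593, was 323 under DESeq2, 311 without TMM factors and 390 without the replicate block. The count lower than in fibroblasts, 873, was 575 under DESeq2 and 515 without TMM factors. Against macrophages, leaving out TMM factors gave 2116 higher and 714 lower. The 43 lowest genes became 18 under DESeq2, 10 without TMM factors, 25 without the replicate block and 116 without endothelial-marked cells. They became 67 with at least 8 mural UMIs and 133 without the fold limit. By CPM in either mouse alone, 17 of the 43 kept the fold. That count used no TMM factors and no new fit, so it mixes the scaling with the mouse. In the comparison by Acta2 or Myh11, 0 genes became 1 under DESeq2, without TMM factors, without the low-count filter and without the replicate block (Tagln in each), 1 without endothelial-marked cells (Ptp4a3), and 2 with at least 3 UMIs required (Tagln and Lmod1). The causes were not tested. The fold in either mouse alone was not counted there, since no gene was called. Depth limits genes of few UMIs, and 15 cells limit the comparison by Acta2 or Myh11.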

Other observations

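Some genes called highest in mural cells belong to none of the lists and were chosen after their values were seen. Gja4 and Gjc1 encode connexins, which form the gap junctions that couple neighbouring cells. Gja4 stood at 261 and 362 CPM against 24.6 and 14.1 in endothelial cells, a difference of 3.68 ± 0.37 (SE) on the log2 scale. Gjc1 stood at 409.7 and 268 against 59.4 and 64.6, a difference of 2.2 ± 0.28. The edgeR adjusted p values over the 3 comparisons were 4e-08 for Gja4 and 1.8e-06 for Gjc1.

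Mfge8, which encodes a secreted glycoprotein that binds phosphatidylserine, stood at 1200.9 and 1114 CPM in mural cells and 262 and 240.3 in endothelial cells. Aspn, the small leucine-rich proteoglycan asporin, stood at 1003 and 886, against 276 and 342 in fibroblasts. Ldhb, a lactate dehydrogenase subunit gene, stood at 318 and 416, against 71.6 and 88.4 in fibroblasts. Fam162a, a hypoxia-linked mitochondrial gene, stood at 643 and 792, against 109 and 98.0 in fibroblasts.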
